A study of Mus musculus with 6 samples.

Results

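ISG15 conjugation and removal was followed through 6 genes that encode the modifier and the enzymes that attach it or take it off: Isg15, Usp18, Uba7, Ube2l6, Herc6 and Trim25. They were chosen by name, with earlier results of these data known. Each matched 1 of the 54532 genes of the deposited count table, and all 6 had enough counts to be among the 12269 genes tested. RNA was sequenced from BV2, an established mouse microglial cell line grown in serum-containing medium, with no stimulus named in the labels. In 3 libraries the cells carried a knockdown of SMEK1, which regulates protein phosphatase 4 and is listed as Ppp4r3a, and these were compared with 3 libraries labelled WT. The labels do not name the knockdown construct, and no source used here says whether WT cells carried a control one; the design text lists both kinds of cells as derived by knockdown. Separate cultures or clones are not stated for libraries of the same kind, so p-values measure the spread between these libraries, and other differences between the cultures cannot be told apart from the knockdown.

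ISG15 is a ubiquitin-like protein built from a pair of ubiquitin-like domains, and it is induced strongly by type I interferon. It is attached to other proteins by a cascade like that of ubiquitin: UBA7 activates it, UBE2L6 carries it and a HERC-type ligase transfers it, a role held in the mouse by HERC6 and in human cells by HERC5. TRIM25 is a ubiquitin ligase of antiviral RNA sensing that has also been reported to transfer ISG15. USP18 removes ISG15 from its targets and, apart from that activity, binds the interferon receptor subunit IFNAR2 and dampens its signal. In microglia these genes belong to the interferon-response state seen after infection and injury.

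Summed counts ran from 18627425 to 21131557 in the knockdown libraries and from 18036591 to 18708438 in WT, which makes 1 count equal to 0.0444 to 0.0597 CPM, the count scaled to a common library size by TMM, edgeR's adjustment for library composition. The targeted gene Ppp4r3a averaged 4.06 ± 1.47 CPM in knockdown libraries and 15.6 ± 2.29 CPM in WT (SD, n = 3 each). It fell by 1.94 log2 units (SE 0.24, adjusted p = 8.22e-05). Markers of microglia and macrophages summed to 2855 to 3126 CPM in knockdown libraries and 3004 to 3318 CPM in WT, although P2ry12 and Cx3cr1, which mark microglia at rest, averaged under 1 CPM in either group. Neuronal markers summed to 0.80 to 1.81 CPM in knockdown libraries and 0.418 to 0.706 CPM in WT, with 3 of 5 at 0 (Syt1, Snap25 and Map2), and astrocyte markers to 0.226 to 0.575 CPM in knockdown libraries and 0.216 to 0.477 CPM in WT, with 2 of 5 at 0 (Aqp4 and Aldh1l1). The 5 oligodendrocyte markers summed to 7.15 to 7.41 CPM in knockdown libraries and 2.53 to 2.81 CPM in WT, nearly all of it Mbp, with Mog at 0. The 5 endothelial markers summed to 38.7 to 54.7 CPM in knockdown libraries and 19.8 to 28.4 CPM in WT, nearly all of it Flt1, with Cldn5 and Cdh5 at 0. The part of these shifts in the results below was not tested.

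Promoter windows are shown for Isg15, which had the largest fall of the 6, for Uba7 and for Trim25, because genes of interferon responses are known to carry response elements there. The RefSeq table of build GRCm38.p6 held a window of 300 bases, 250 before the RefSeq start site and 50 after, for 5 of the 6 genes. That site is not always the gene start of the count table. For Uba7 and Trim25 it lies inside the gene bounds given below. The windows are chr4:156200769-156201068 on the minus strand for Isg15, chr9:107975317-107975616 on the plus strand for Uba7 and chr11:88999153-88999452 on the plus strand for Trim25. Capitals mark matches, on either strand, to the core of the interferon-stimulated response element, spelled GAAA, NN and GAAA without a gap, or to the shorter AAANNGAAA.
Isg15: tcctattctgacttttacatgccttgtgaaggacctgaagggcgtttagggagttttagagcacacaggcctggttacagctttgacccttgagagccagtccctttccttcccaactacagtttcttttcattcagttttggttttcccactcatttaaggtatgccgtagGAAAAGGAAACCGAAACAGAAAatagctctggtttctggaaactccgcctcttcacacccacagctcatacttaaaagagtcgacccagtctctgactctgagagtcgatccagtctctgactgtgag
Uba7: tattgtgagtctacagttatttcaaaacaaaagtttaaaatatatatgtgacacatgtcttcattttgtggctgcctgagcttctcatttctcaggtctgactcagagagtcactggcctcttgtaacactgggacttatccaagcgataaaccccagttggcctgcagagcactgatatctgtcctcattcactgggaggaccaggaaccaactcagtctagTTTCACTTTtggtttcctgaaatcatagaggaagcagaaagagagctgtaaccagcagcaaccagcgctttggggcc
Trim25: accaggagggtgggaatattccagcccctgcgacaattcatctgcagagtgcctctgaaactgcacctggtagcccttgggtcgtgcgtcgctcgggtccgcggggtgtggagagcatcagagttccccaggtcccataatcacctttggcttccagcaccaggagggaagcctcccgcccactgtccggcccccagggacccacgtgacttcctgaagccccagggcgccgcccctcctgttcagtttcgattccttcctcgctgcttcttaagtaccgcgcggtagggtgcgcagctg
The Isg15 window held 3 overlapping matches to the full core on its own strand, beginning at bases -78, -72 and -66 from the start. Among all 32851 promoter windows of that length, 3.44% held this motif. The other 4 windows (Uba7, Ube2l6, Herc6 and Trim25) did not hold these letters. The shorter AAANNGAAA was added after the sequences had been seen, lies inside the longer motif, and is in 10.6% of all windows; Uba7 held 1 match, on the opposite strand, as the letters TTTCACTTT from base -27. No window of the 5 held the gamma-activated letters TTCNNNGAA, found in 8.30% of all windows, or the NF-kappaB letters, GGGA, NNNN and CC without a gap, found in 20.7%. The search covered both strands, and a match describes letters only.

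Transcripts of the modifier, its protease and most of its conjugation enzymes were lower in the SMEK1 knockdown. By the quasi-likelihood test of edgeR, with p-values adjusted by Benjamini-Hochberg across the whole tested table, 5 of the 6 genes fell at an adjusted p under 0.05 and 0 rose, where 40.1% of all genes tested were called, 19.6% lower and 20.5% higher. The groups of libraries did not overlap, with the knockdown lower, for the same 5 genes, as they did for 24.3% of all genes tested (50.9% in either direction). The median log2 fold change of the 6 was -1.20, beside 0.01 over all genes tested. Because the 6 were chosen with earlier results of these data known, these comparisons with all genes are not independent support. Isg15 and Usp18 fell most, and Herc6 was the gene that was not called. In bulk libraries, fewer cells with a transcript and less of it per cell cannot be told apart.

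Isg15 itself, the modifier (ENSMUSG00000035692, minus strand of chromosome 4, 156199424 to 156200818 in GRCm38), was reduced to 7.20% of its WT level. It had 4.23, 4.89 and 3.21 CPM in knockdown libraries A, B and C, against 51.9, 60.5 and 58.9 CPM in WT libraries A, B and C. Every knockdown library lay far below every WT library. It was counted 81, 110 and 71 times in knockdown libraries A, B and C, with 962, 1014 and 1001 in WT libraries A, B and C. The fall was 3.79 log2 units (SE 0.15, adjusted p = 1.36e-08), which ranked 23 from the lowest fold change among the 12269 genes. A processed pseudogene named for Isg15 on chromosome 17 had 3 counts over the knockdown libraries and 1 over WT, and no other gene of the table overlapped Isg15.

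Usp18, which encodes the protease that removes ISG15 (ENSMUSG00000030107, plus strand of chromosome 6, 121245906 to 121270917), had 11.3, 9.55 and 13.1 CPM in knockdown libraries A, B and C, against 96.2, 109.6 and 107.7 CPM in WT libraries A, B and C. Knockdown libraries were all low and WT libraries all high, with means of 11.3 ± 1.80 CPM over knockdown libraries and 104 ± 7.26 CPM over WT libraries (SD, n = 3 each). Usp18 fell by 3.20 log2 units (SE 0.12, adjusted p = 8.41e-09), to 10.9% of WT, rank 41 from the lowest. The overlapping antisense lincRNA Gm44148 had 4 counts over the knockdown libraries and 1 over WT. How reads in the overlap were assigned is not known, because the counting program and use of strand are not stated.

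Fold changes of the activating and conjugating enzymes were smaller in size; the ratios further on set them against Isg15. Uba7, which encodes the activating enzyme (ENSMUSG00000032596, plus strand of chromosome 9, 107975505 to 107984060), had 9.04, 5.60 and 7.36 CPM in knockdown libraries A, B and C, against 18.7, 21.1 and 19.4 CPM in WT libraries A, B and C. The ranges did not meet, and the knockdown libraries were relatively more spread than the WT libraries. It fell by 1.43 log2 units (SE 0.18, adjusted p = 7.42e-05), to 37.1% of WT. Ube2l6, which encodes the conjugating enzyme (ENSMUSG00000027078, plus strand of chromosome 2, 84798828 to 84810335), was among the more abundant of the 6, with 131, 93.7 and 115 CPM in knockdown libraries A, B and C, against 203, 246 and 213 CPM in WT libraries A, B and C. The highest knockdown library stayed well under the lowest WT library. Ube2l6 fell by 0.96 log2 units (SE 0.12, adjusted p = 7.64e-05), to 51.4% of WT.

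Of the ligases, Trim25 was called and Herc6 was not. Trim25 (ENSMUSG00000000275, plus strand of chromosome 11, 88999376 to 89020293) had 116, 115 and 104 CPM in knockdown libraries A, B and C, against 201, 183 and 192 CPM in WT libraries A, B and C, with no overlap. It fell by 0.78 log2 units (SE 0.08, adjusted p = 1.69e-05), to 58.1% of WT. Herc6, the main ISG15 ligase known in the mouse (ENSMUSG00000029798, plus strand of chromosome 6, 57581000 to 57664632), had few counts in both groups. It was counted 3, 22 and 11 times in knockdown libraries A, B and C, with 17, 7 and 13 in WT libraries A, B and C. The groups overlapped fully, at 0.157, 0.977 and 0.497 CPM in knockdown libraries and 0.918, 0.418 and 0.765 CPM in WT. Its log2 fold change was -0.34 (SE 0.55, adjusted p = 0.653), and it became 0.07 without knockdown A and -1.04 without knockdown B, so no direction is given for it.

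**Figure D1:**
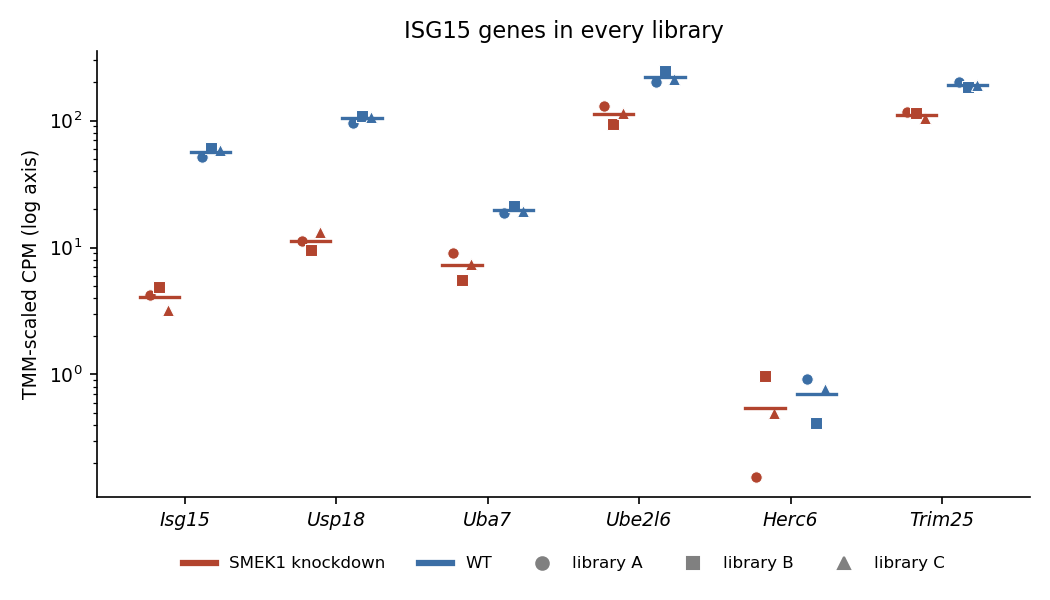
TMM-scaled CPM (log axis) of the 6 ISG15 genes in each library, SMEK1 knockdown left of WT, with library letters as point shapes and group means as bars. Isg15 lies at 3.21 to 4.89 CPM in knockdown libraries against 51.9 to 60.5 CPM in WT, and only Herc6 has groups that overlap.

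Levels per transcript length were read from the FPKM values of the authors. In the knockdown Ube2l6 was highest at 56.4 ± 10.2 FPKM, then Trim25 at 19.2 ± 1.18, Isg15 at 5.38 ± 1.07, Usp18 at 4.03 ± 0.670, Uba7 at 1.09 ± 0.271 and Herc6 at 0.0575 ± 0.0429 FPKM (SD, n = 3). In WT the order was Ube2l6 at 110 ± 11.1 FPKM, Isg15 at 75.3 ± 5.87, Usp18 at 37.3 ± 2.52, Trim25 at 33.3 ± 1.69, Uba7 at 2.93 ± 0.179 and Herc6 at 0.0751 ± 0.0276 FPKM (SD, n = 3). Libraries overlapped between neighbours in this order for Isg15 and Usp18 in the knockdown, and for Usp18 and Trim25 in WT. As a share of the summed FPKM of the 6 genes, Isg15 made up 6.34% ± 1.76 in the knockdown and 29.0% ± 0.880 in WT, while Ube2l6 made up 65.1% ± 4.10 in the knockdown and 42.5% ± 1.73 in WT (SD, n = 3 each). Trim25 was thus above Isg15 in every knockdown library and below it in every WT library.

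Ratios within a library do not depend on scaling between libraries, and they put numbers on how unevenly the set fell. There were 3.60, 3.09 and 4.26 Trim25 FPKM for each Isg15 FPKM in knockdown libraries A, B and C, against 0.509, 0.396 and 0.429 in WT A, B and C. Ube2l6 stood at 11.8, 7.27 and 13.6 times Isg15 in knockdown libraries A, B and C, against 1.48, 1.54 and 1.37 times in WT A, B and C. On the log2 scale the difference between knockdown and WT was 3.03 for Trim25, 2.85 for Ube2l6 and 2.36 for Uba7, each relative to Isg15. For Herc6 it was 3.17, but this rests on the few counts given above. Usp18 had the smallest difference of the 5: its ratio was 0.726, 0.530 and 1.11 in knockdown libraries A, B and C, against 0.502, 0.491 and 0.495 in WT A, B and C. That is a log2 difference of 0.60, with mean log2 ratios of -0.41 ± 0.54 in the knockdown and -1.01 ± 0.02 in WT (SD, n = 3 each). Knockdown B lay close to the WT libraries in this ratio, and knockdown C was the library in which Usp18 exceeded Isg15. All 5 ratios were higher in every knockdown library than in every WT library. Each had p = 0.1 by a two-sided exact permutation test (adjusted p = 0.1 over the 5 ratios), the smallest value that 3 libraries against 3 allow.

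**Figure D2:**
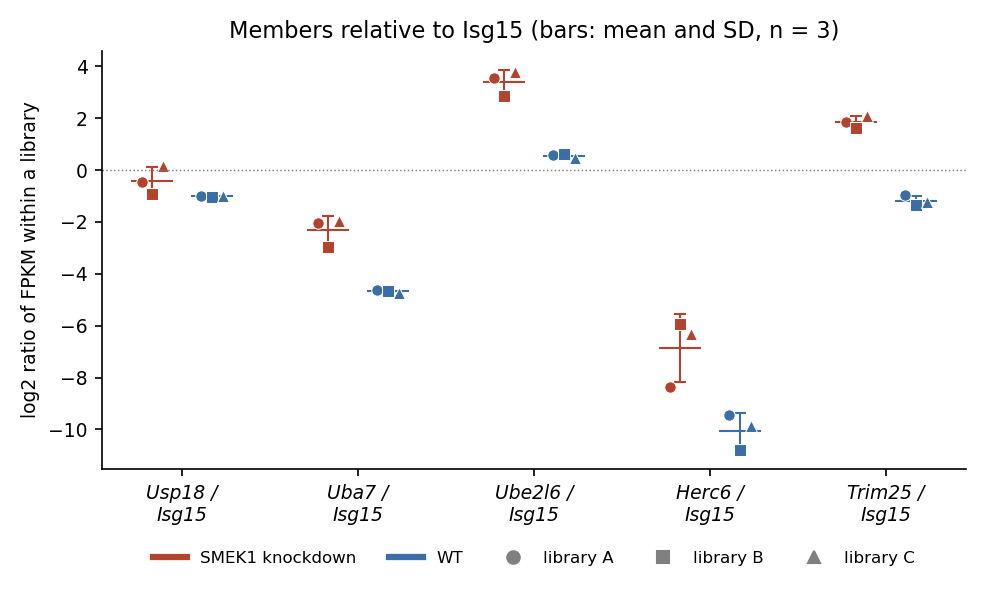
Log2 ratio of the FPKM of each of the other 5 genes to that of Isg15 within a library, SMEK1 knockdown left of WT; points are libraries, and bars are the mean and SD of 3 libraries. Isg15, which fell most, is the denominator of all 5. Every gene has higher ratios in the knockdown, by 0.60 for Usp18 and by 2.36 to 3.17 for the others.

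The signalling complex that induces these genes was measured as the interferon receptor subunits, their kinases and the parts of ISGF3, the transcription factor complex that interferon signalling assembles. Of 7 tested genes 2 rose and 3 fell, with a median log2 fold change of 0.01, where 20.5% of all genes tested rose and 19.6% fell. The receptor genes rose: Ifnar1 averaged 73.2 ± 2.13 CPM in knockdown libraries and 43.2 ± 1.40 CPM in WT, and Ifnar2, which encodes the subunit that USP18 binds, averaged 105 ± 3.49 CPM in knockdown libraries and 57.4 ± 6.88 CPM in WT (SD, n = 3 each). The rises were 0.76 (SE 0.08, adjusted p = 2.16e-05) and 0.87 (SE 0.09, adjusted p = 2.67e-05) on the log2 scale. Both genes lie on chromosome 16, where the median of 377 tested genes was 0.40. Irf9, the DNA-binding part of ISGF3, fell by 0.79 log2 units (SE 0.09, adjusted p = 5.13e-05), to 37.9 ± 1.87 CPM in knockdown libraries, against 65.4 ± 5.26 CPM in WT (SD, n = 3 each). Its locus is on chromosome 14 beyond 40 Mb, and 288 tested genes there had a median of -0.39. Stat2, another part of ISGF3, fell by 0.46 log2 units (SE 0.15, adjusted p = 0.0256). Its call was lost without knockdown B (adjusted p = 0.0757), knockdown C (adjusted p = 0.0759), WT A (adjusted p = 0.0824) or WT C (adjusted p = 0.0782), as it was when library totals replaced TMM (adjusted p = 0.131). The call was also lost with a replicate block, the library letter fitted beside the group (adjusted p = 0.0936). So it was with every gene of at least 1 count tested (adjusted p = 0.0649). Of the 7 genes 1 was lower without knockdown C or WT C, and 1 with library totals or the replicate block.

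Transcripts of the interferons themselves were near 0. Of 20 interferon genes in the list, 16 had no count in any library, and the other 4 had 1 count in all over the knockdown libraries and 7 over WT. Ifnb1 had 0 counts over the knockdown libraries and 2 over WT. A count of 0 allows up to 3 counts over a group, 0.0470 CPM in knockdown libraries and 0.0574 CPM in WT, and this limit covers counting error only.

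Other enzymes reported to attach or remove ISG15 were mostly not called. Of 9 tested genes 2 rose and 0 fell, and 7 were not called, with a median of -0.04. Over all genes tested 40.1% were called. Ube2e1 and Ube2e2, ubiquitin-conjugating enzymes, rose by 0.60 (SE 0.11, adjusted p = 8.59e-04) and 0.61 (SE 0.17, adjusted p = 0.0128) on the log2 scale. Arih1, a ligase that acts with UBE2L-type enzymes, had 21.7 ± 7.38 CPM in knockdown libraries and 21.9 ± 2.57 CPM in WT (SD, n = 3 each), a difference of -0.02 log2 units (SE 0.21, adjusted p = 0.959). Usp5 was at -0.21 log2 units (SE 0.09, adjusted p = 0.0997) and Usp2 at -0.09 (SE 0.21, adjusted p = 0.750). The call for Ube2e2 was lost without WT C (adjusted p = 0.0555) and with the replicate block (adjusted p = 0.0568). Genes called lower numbered 2 without knockdown B, 1 without knockdown A or WT B, and 1 with DESeq2, with its size factors in edgeR or with every gene of at least 1 count tested; Usp5 was called without knockdown A (adjusted p = 0.0138).

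Genes of proteins reported to carry ISG15 went both ways: of 17 tested, 6 fell and 2 rose, with a median of -0.11. Over all genes tested 19.6% fell and 20.5% rose. The lower genes of the list were led by antiviral genes. Ddx58, which encodes the RNA sensor RIG-I, had 1.41, 3.07 and 2.03 CPM in knockdown libraries A, B and C, against 12.8, 7.94 and 10.7 CPM in WT libraries A, B and C, and it fell by 2.26 log2 units (SE 0.28, adjusted p = 7.41e-05). Eif2ak2, which encodes the kinase PKR, fell by 1.52 (SE 0.26, adjusted p = 6.92e-04) on the log2 scale. Ccnd1, which encodes cyclin D1, fell by 0.32 log2 units (SE 0.08, adjusted p = 0.00632). This call was lost with library totals (adjusted p = 0.0616), where 2 genes of the list were lower and 5 higher. The 2 higher genes numbered 1 without knockdown A, knockdown C, WT A or WT C. They numbered 1 with DESeq2 or with its size factors in edgeR, and 0 with the replicate block.

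Among partners of TRIM25 in RNA sensing, 2 of 6 genes fell and 0 rose, where 19.6% of all genes tested fell and 20.5% rose. Besides Ddx58 the lower one was Dhx58, which encodes the related helicase LGP2. It had 6.53, 5.20 and 4.88 CPM in knockdown libraries A, B and C, against 24.0, 29.4 and 28.8 CPM in WT libraries A, B and C, and fell by 2.31 log2 units (SE 0.16, adjusted p = 7.50e-07). Both genes of the integrin reported to receive extracellular ISG15 fell: Itgb2 by 0.71 (SE 0.09, adjusted p = 9.43e-05) and Itgal by 0.39 (SE 0.10, adjusted p = 0.00975) on the log2 scale. The call for Itgal was lost without WT C (adjusted p = 0.0646) and with library totals (adjusted p = 0.0936).

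The genes nearest in kind to the ISG15 set, which serve ubiquitin or other modifiers, moved in both directions. Of 14 tested ubiquitin-like modifiers 6 fell and 4 rose, with a median of -0.19, where 19.6% of all genes tested fell and 20.5% rose. The largest falls were those of Oasl2 and Oasl1, members of the OAS family with ubiquitin-like domains that interferon induces. Oasl2 had 4.65, 4.31 and 4.79 CPM in knockdown libraries A, B and C, against 30.5, 29.7 and 29.2 CPM in WT libraries A, B and C, and it fell by 2.70 log2 units (SE 0.13, adjusted p = 5.89e-08). Oasl1 fell by 1.35 (SE 0.08, adjusted p = 3.69e-07) and Fau, which encodes a ubiquitin-like protein fused to a ribosomal protein, fell by 0.83 (SE 0.09, adjusted p = 2.42e-05) on the log2 scale. Ufm1, another small modifier, rose by 0.65 (SE 0.08, adjusted p = 5.55e-05).

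Of 7 activating-enzyme genes for other modifiers 2 fell and 0 rose, where 19.6% of all genes tested fell and 20.5% rose. Uba1, which activates ubiquitin, fell by 0.37 (SE 0.08, adjusted p = 0.00369) and Uba6 fell by 1.23 (SE 0.30, adjusted p = 0.00624) on the log2 scale, Uba6 at low levels of 1.65 ± 0.356 CPM in knockdown libraries and 3.87 ± 1.23 CPM in WT (SD, n = 3 each). Without knockdown A or knockdown B 1 of these genes was higher, and with library totals 2 were. Of 10 conjugating-enzyme genes 3 rose and 1 fell, with a median of 0.19, beside the same shares of all genes tested. Ube2e1 and Ube2e2, already given among the other enzymes reported for ISG15, are 2 of the 3. Ube2l3, the close relative of Ube2l6 that works with ubiquitin, rose by 0.27 (SE 0.08, adjusted p = 0.0176), where Ube2l6 fell. Ube2l3 lies on chromosome 16. Its call was lost without WT A (adjusted p = 0.0613) or WT C (adjusted p = 0.0587), and with the replicate block (adjusted p = 0.0839). Ube2m, which conjugates NEDD8, fell by 0.64 (SE 0.08, adjusted p = 1.12e-04) on the log2 scale. The 3 higher genes numbered 1 without WT C or with the replicate block, and 7 with library totals.

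Of 4 other HERC genes 2 fell and 0 rose, where 19.6% of all genes tested fell and 20.5% rose. Herc1 fell by 0.47 (SE 0.17, adjusted p = 0.0479) and Herc2 fell by 0.43 (SE 0.15, adjusted p = 0.0404) log2 units, while Herc4 had -0.37 (SE 0.22, adjusted p = 0.209). With upper-quartile scaling or library totals 0 of the 4 were called, and likewise without knockdown A, knockdown C, WT A or WT C; without knockdown B 1 was. Of 6 tested TRIM genes known to be interferon-induced, 1 fell and 2 rose, Trim12a being 1 of the 2. Trim14, an adaptor of antiviral signalling, had 5.23, 5.55 and 5.42 CPM in knockdown libraries A, B and C, against 13.1, 11.9 and 12.1 CPM in WT libraries A, B and C, and fell by 1.19 log2 units (SE 0.15, adjusted p = 9.86e-05). Trim26 rose by 0.43 (SE 0.10, adjusted p = 0.00514). Trim12a had 60 counts over the knockdown libraries and 3 over WT, a ratio of 16.4 (exact 95% counting interval 5.35 to 81.7). Trim12a passed the filter through the knockdown libraries, at 0.927 CPM there and 0.0589 CPM in WT, so its rise is not read as a result. With at least 1 CPM in 3 libraries 5 of these genes were tested and 1 rose. Trim12a belongs to a cluster of similar genes, so its counts are uncertain.

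**Figure D3:**
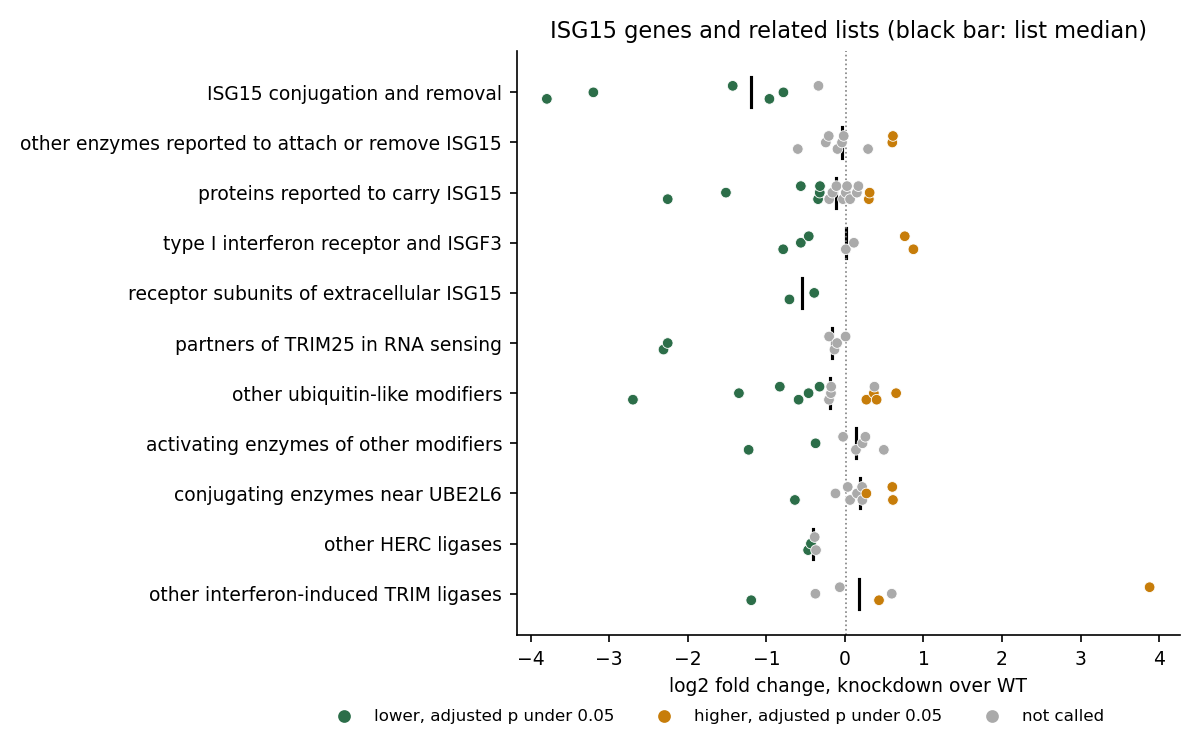
Log2 fold change of SMEK1 knockdown over WT for each tested gene of the ISG15 set (top row) and of 10 related lists; black bars are list medians and the dotted line is the median of all genes tested. The ISG15 set has a median of -1.20, the list medians below it run from -0.55 to 0.19, and the far right point is Trim12a, with 3 counts over WT.

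Genes beside the 6 were examined to see whether whole neighbourhoods had shifted. The chromosomes that carry them had medians of -0.08 to 0.14. Each count of neighbours below stands beside 19.6% lower and 20.5% higher over all genes tested. Within 500 kb of Isg15, 10 of 25 tested genes fell and 3 rose, with a median of -0.26. The adjacent gene Agrn, which encodes the matrix protein agrin and was named after its values were seen, fell by 1.81 log2 units (SE 0.19, adjusted p = 2.47e-05), with 2.75 ± 0.438 CPM in knockdown libraries and 9.64 ± 0.772 CPM in WT (SD, n = 3 each). Within 500 kb of Usp18, 3 of 10 tested genes fell and 2 rose, with a median of -0.18. Its neighbours Slc6a12 and Slc6a13, transporter genes for GABA and betaine or taurine that were named after their values were seen, fell by 1.87 (SE 0.12, adjusted p = 3.52e-07) and 2.39 (SE 0.30, adjusted p = 7.67e-05) on the log2 scale. Of 34 tested genes near Uba7 4 fell and 6 rose, of 13 near Ube2l6 2 fell and 2 rose, of 6 near Trim25 1 fell and 1 rose, and of 3 near Herc6 0 fell and 1 rose. Isg15, Usp18 and Uba7 each had a lower fold change than every tested neighbour in its window. Ube2l6, Trim25 and Herc6 each had a neighbour with a lower one, P2rx3 at -1.71, Akap1 at -0.86 and Ppm1k at -0.35 (not called), all named after their values were seen. The chromosome and region medians were likewise chosen after the values were seen.

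**Figure D4:**
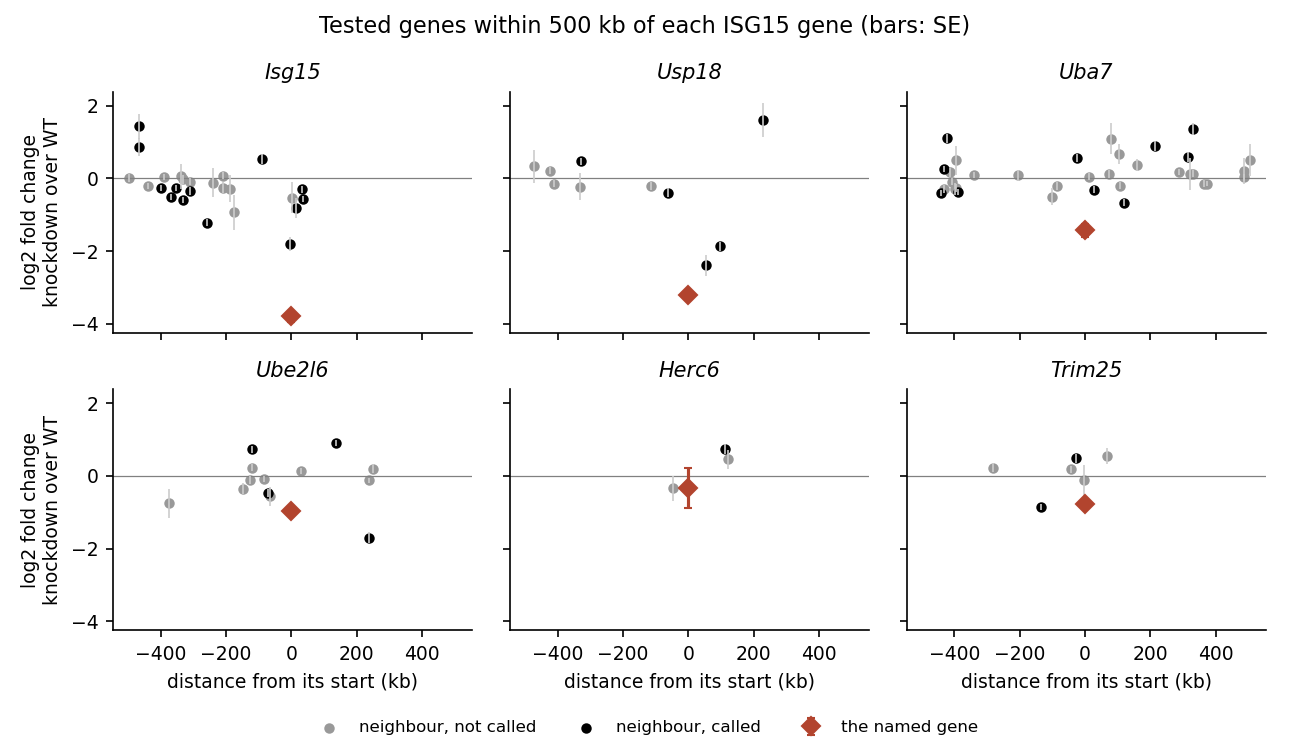
Log2 fold change of SMEK1 knockdown over WT (bars: SE) for every tested gene within 500 kb of each ISG15 gene, against the distance between their starts in kb. Isg15 at -3.79 and Usp18 at -3.20 lie below all neighbours in their windows, where the median is -0.26 and -0.18.

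The genes whose pattern over the 6 libraries was most like that of the set were ranked by Pearson correlation of log2 CPM with the mean standardised profile of the 6. Among 8711 protein-coding candidates the closest were Cd33, Bop1, Trim14, C3, Acod1, Zfp36l2, Mrps34, Slitrk5, Siglec1 and Nfam1, with r of 0.998 to 0.999. They fell by differing amounts, with log2 fold changes of -0.42 for Mrps34, a mitochondrial ribosomal protein, to -4.45 for complement C3. Cd33 and Siglec1 encode sialic acid-binding receptors of myeloid cells. The 6 points form 2 groups, and 1321 of the candidates had r above 0.9, so such a likeness is shared by many genes. Isg15, Usp18, Uba7, Ube2l6 and Trim25 each had r of 0.921 to 0.994 with the mean profile, and Herc6 had 0.380. Each of the 6 is itself part of that mean, so these values are no test of how alike the genes are.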

How the data were processed

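Per the labels' protocols, libraries were made from total RNA with a SMARTER mRNA kit; the genome build was GRCm38 (mm10), per the submitters' processing notes. Aligner, counting program, annotation release and use of strand are not stated in any source used here. The authors deposited raw counts per gene, and FPKM values that equal the count per gene length scaled by a constant of each library. A table that repeats the FPKM with group means was not used.

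Counts were filtered with filterByExpr, scaled by TMM and tested, knockdown against WT, with edgeR 4.0.16 (glmQLFit, glmQLFTest, no covariates) in R 4.3.3; genes were called at a Benjamini-Hochberg adjusted p under 0.05 over all 12269 genes tested. SE is the absolute log2 fold change over the root of F. The biological coefficient of variation was 0.121. Alternatives were other scalings and filters, DESeq2 1.42.0, limma 3.58.1 (voom on counts, or log2 FPKM with pseudocounts of 1 and 0.1 at a mean FPKM of at least 0.5), a replicate block, stricter thresholds and leaving out each library.

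The 6 genes and all lists were chosen with earlier results of these data known. Named were all 6, at most 4 called genes a list by adjusted p, genes with central roles, and the 10 most similar patterns at a mean of at least 5 CPM, with 0.5 CPM added before logs. Some genes that the rule names are not reported here, and protein sequences were not used here.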

Additional observations from a re-analysis of the deposited data

How the results depend on the processing

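For Isg15, Usp18, Uba7, Ube2l6 and Trim25, all 18 alternatives kept the direction and the call, and each alternative counted 5 of the 6 genes lower and 0 higher. Across these alternatives the log2 fold change ran from -3.92 to -3.59 for Isg15, -3.32 to -2.94 for Usp18, -1.59 to -0.92 for Uba7, -1.07 to -0.80 for Ube2l6 and -0.82 to -0.63 for Trim25. The value of -0.92 for Uba7 came from log2(FPKM + 1), a scale that understates changes of low genes, and the largest adjusted p of the 5 genes, 0.0424 for Trim25, from the test against a fold of 1.5. Herc6 ran from -1.04 to 0.068 when libraries were left out in turn, and was too low for the filter of at least 1 CPM in 3 libraries and for limma on FPKM. The 5 ratios to Isg15, which share that denominator, kept their direction in 35 of 35 alternatives.

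Of the 76 tested genes of the other lists 23 were lower and 13 higher, Trim12a among the higher. The shares over all genes tested were 19.6% lower and 20.5% higher. With library totals, which moved the median of all genes by 0.159 and made 71.3% of calls higher in place of 51.1%, 14 were lower and 22 higher. The test against a fold of 1.5 left 7 lower and 2 higher, and 8 were higher at an adjusted p under 0.01. Arih1 changed sign with library totals (0.15), upper-quartile scaling (0.015), at least 1 count in any library (0.018) and in the range of -0.28 to 0.20 without single libraries; Usp2 did so with library totals (0.070) and in a range of -0.25 to 0.041. Neither was called in any alternative. The cause was not tested. Libraries with the same letter did not deviate together (r of -0.44, -0.41 and 0.00 over genes), so the letters are not taken as pairs. Between different letters r was 0.49 for knockdown B with WT A and 0.36 for knockdown A with WT B. Deviations were taken from the group mean and cancel within a group. Negative r for the same letter therefore comes with positive r elsewhere, and these values are not separate results. That cancelling ties their signs together but does not by itself set their size. What the libraries with the larger r share was not tested. With a replicate block all genes called numbered 1648 lower and 1678 higher, against 2403 and 2515, and 7 genes of the other lists were higher. The median around Herc6 was 0.45 within 500 kb and -0.03 within 1000 kb. Herc6 had 36 counts over the knockdown libraries and 37 over WT, with 3 to 22 a library in the knockdown and 7 to 17 in WT; how much of its spread is counting error was not tested.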
